A study of Mus musculus with 6 samples.

Results

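Lung group 2 innate lymphoid cells (ILC2s), lymphocytes without an antigen receptor that live in tissues and make type 2 cytokines, are described here as they stood in a vehicle culture. Deposited RNA-seq counts were used for 3 libraries, labelled PBS 1, PBS 2 and PBS 3, of the 6 in the series; the 3 TNFa libraries were not used here. The lungs came from BALB/c mice, 6 weeks old, given 1 µg recombinant mouse IL-33 into the peritoneum 3 times. ILC2s sorted from these lungs were kept for 48 h in recombinant mouse IL-2 and IL-7, at 10 ng/mL each, with PBS as the vehicle. All 3 libraries share the injections and both culture cytokines, so no unstimulated or freshly sorted ILC2 stands beside them. The sort gates, the sex of the mice and whether each library came from its own mice or culture are not given in the labels, so the spread between libraries may be technical. The label of PBS 2 also calls it a repeat.

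IL-33 is an epithelial alarm cytokine that acts on ILC2s through the receptor ST2, encoded by Il1rl1. IL-2 and IL-7 signal through receptors that share the chain Il2rg and the kinases JAK1 and JAK3, and IL-7 supports the survival of innate lymphocytes. Activated lung ILC2s are known for IL-5, which acts on eosinophils, for IL-13, which acts on airway epithelium and muscle, for amphiregulin and for the enzyme arginase 1. The transcription factor GATA3 is needed for their development and for their cytokine genes.

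Libraries made from 10 ng of total RNA held 30233979, 29185442 and 30908757 estimated counts. Each library was scaled by its own total to CPM (counts for every 1000000 counts), and the 14696 protein-coding genes among the 21825 genes of the table were ranked by mean CPM. Protein-coding genes took 95.01%, 95.8% and 95.3% of the counts. A total of 3 counts, the limit that a count of 0 allows, corresponds to 0.0992, 0.103 and 0.0971 CPM, which covers counting error only. Values below are the mean ± SD of the 3 libraries (n = 3), or the values of PBS 1, PBS 2 and PBS 3 in that order. CPM counts reads, and long transcripts give more of them. Ratios between protein-coding genes are therefore given per kilobase of transcript, by mean annotated length unless another length is named. Ranks, thresholds, medians and sums of lists, and words such as high or low refer to CPM unless per kilobase is stated. Transcript length enters all of these. There is a single group, so no test between conditions was made.

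A mean of 1 CPM or more was reached by 11200 protein-coding genes, or 76.2%. At 10 CPM or more stood 8442 genes (57.4%), at 100 CPM or more 2240 (15.2%), and at 1000 CPM or more 77 (0.524%). Counts of list members at 10 CPM or more are given below as a share of the list, to be read against this 57.4%. The median protein-coding gene had 17.0 CPM. The 50 highest genes held 15.1%, 14.7% and 14.1% of the protein-coding counts, and 792, 827 and 850 genes were needed to hold 50% of them. Reads were spread over many genes, and the highest gene held 1.71% of the protein-coding counts on average.

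The highest ranks were held by the actin cytoskeleton, ferritin, class I antigen presentation and glycolysis, and by 1 cytokine, Il5. Actb, encoding beta-actin, ranked first with 17181, 17579.9 and 14294 CPM. Tmsb4x, whose product thymosin beta-4 binds actin monomers, followed with 10329.5, 9902 and 9011 CPM. Rank 3 was Actg1, the gamma-actin gene, at 7184, 7284 and 7042 CPM. PBS 3 was the lowest of the 3 libraries for each of these genes, and the gap was widest for Actb. The ferritin light chain gene Ftl1 (5961 ± 518 CPM) and the heavy chain gene Fth1 (2889.5 ± 126 CPM) ranked 4 and 11. A list of 45 actin cytoskeleton genes, drawn up after these ranks were seen, held 6.67% of all counts. Of its members 44 (97.8%) stood at 10 CPM or more, beside 57.4% of all protein-coding genes. Because the ranks were seen first, these shares only describe the ranking. The list held the actin-bundling Lcp1 (2036 ± 174 CPM), the actin-severing Cfl1 (1797 ± 121 CPM) and Coro1a (2097 ± 166 CPM). It also held the minus-end motor gene Myo6 (1516 ± 88.9 CPM). Of the actinin genes, Actn4 had a mean of 606 CPM, while Actn1 stood at 0.647 ± 0.174 CPM.

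**Figure D1:**
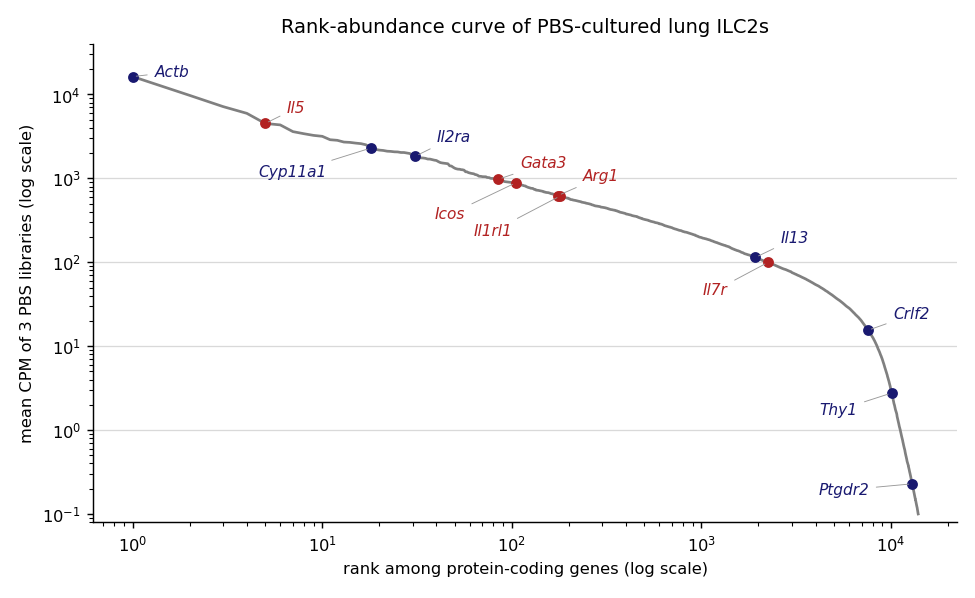
Mean CPM of the 3 PBS libraries (vertical axis, log scale) against rank among protein-coding genes (horizontal axis, log scale), with 6 ILC2 markers in red and 7 further genes in dark blue. Il5 lies at rank 5 with 4517 CPM, 5 of the 6 markers lie at 617 CPM or more, and Ptgdr2 lies at the tail with 0.229 CPM.

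The class I genes H2-D1 (4341 ± 371 CPM) and H2-K1 (2151 ± 183 CPM) and their light chain B2m (2514 ± 108 CPM) ranked 6, 21 and 17. BALB/c class I alleles differ from those of the C57BL/6 reference genome, and how this moved their reads was not tested. Class II genes were low: H2-Ab1 had 31.1 ± 3.29 CPM, the invariant chain Cd74 22.8 ± 5.46 CPM and the class II transactivator Ciita 1.90 ± 0.244 CPM. Of 17 antigen presentation genes, 12 (70.6%) stood at 10 CPM or more. The 40 highest genes also held the cyclophilin Ppia, the elongation factor Eef1a1, the tubulins Tuba1b and Tubb5, the galectin Lgals1, the profilin Pfn1, the tetraspanin Cd53 and the endoplasmic reticulum genes Ero1l (2034 ± 263 CPM) and Hsp90b1 (1634 ± 46.9 CPM). Rank 15, Lars2, had 3036, 2643 and 2222 CPM; this mitochondrial tRNA ligase gene is known to collect ribosomal RNA reads in mouse libraries, so its level is uncertain.

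Length changed the order of the ranking in part. Of the 50 highest genes by CPM, 36 were also among the 50 highest per kilobase, and 29 with the longest transcript in place of the mean length. Per kilobase, Actb (18657 ± 2046), Tmsb4x (12551 ± 866) and Ftl1 (7855 ± 683) led, and Il5 (2939 ± 273) stood at rank 12, between Ppia (2987 ± 152) and B2m (2924 ± 125), whose library values overlapped its own. Lgals1, which encodes a secreted galactoside-binding protein, had 3983 ± 106 CPM per kilobase. Genes with long transcripts stood lower on this scale: Myo6 went from rank 44 by CPM to rank 313, and Fgl2, which encodes a secreted fibrinogen-like protein, from rank 42 to rank 300.

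The 6 markers of the label, all on a list chosen with earlier results of these data known, were present in each library. Their presence describes the cells and is not an independent check of the label. Il5 (mm10 chr11:53720794-53725106, plus strand) had 4698, 4037 and 4816 CPM and ranked 5 of 14696. Gata3 (chr2:9857078-9890034, minus strand) had 973, 1041 and 917 CPM (mean 977 ± 62.4, rank 85). Icos, a costimulatory receptor gene, had 912, 815 and 934 CPM (mean 887 ± 63.3, rank 105). The SD of each of these 3 genes was under 10% of its mean. Arg1 (chr10:24915221-24927484, minus strand), which encodes the arginine-cleaving enzyme of the urea cycle, was almost level at 632, 611 and 630.4 CPM (mean 625 ± 11.8, rank 175). Il1rl1 (chr1:40429570-40465415, plus strand) had 558, 587 and 706 CPM (mean 617 ± 78.6, rank 180), highest in PBS 3. Il7r, the alpha chain of the IL-7 receptor, was the lowest of the markers in reads at 110.3, 83.0 and 106 CPM (mean 99.8 ± 14.8, rank 2247), and PBS 2 was its lowest library.

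Of 26 ILC2 identity genes, 23 (88.5%) stood at 10 CPM or more, against 57.4% of all protein-coding genes, and 16 stood at 100 CPM or more, against 15.2%. Their median was 151 CPM beside 17.0 CPM for all protein-coding genes. Because the list was chosen with earlier results of these data known, these values only describe the cells. Besides the markers, the list held Il2ra (1843 ± 256 CPM), the helix-loop-helix factor gene Id2 (1673 ± 69.6 CPM), Ly6a (700.4 ± 41.8 CPM), the pan-leukocyte gene Ptprc (574 ± 71.7 CPM), the nuclear receptor gene Rora (243 ± 10.3 CPM), the bZIP factor gene Hlf (239 ± 18.6 CPM), the inhibitory lectin gene Klrg1 (220.1 ± 23.7 CPM) and the zinc finger gene Bcl11b (164 ± 24.2 CPM). Lower members included the stem cell factor receptor gene Kit (102 ± 17.5 CPM), the chemokine receptor gene Ccr8 (85.9 ± 2.46 CPM), the early activation gene Cd69 (72.3 ± 7.83 CPM) and Crlf2 (15.5 ± 3.23 CPM), whose product is part of the TSLP receptor. Il17rb, the IL-25 receptor gene, had 60.1, 68.7 and 81.0 CPM, but Actr8 (46.3 ± 2.63 CPM) overlaps it on the opposite strand, and reads of the pair cannot be told apart without strand.

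The 3 members under 10 CPM were Il18r1 (8.84, 8.39 and 8.62 CPM), Thy1 (2.25, 2.47 and 3.58 CPM) and Ptgdr2 (0.304, 0.383 and 0 CPM). Thy1 encodes the surface antigen CD90 and Ptgdr2 the prostaglandin D2 receptor CRTH2, both used as ILC2 markers in other settings. The table lists Ptgdr2 at 0 in PBS 3. Ccdc86 (48.2 ± 6.54 CPM) overlaps Ptgdr2 on the opposite strand, so even this low level is uncertain.

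**Figure D2:**
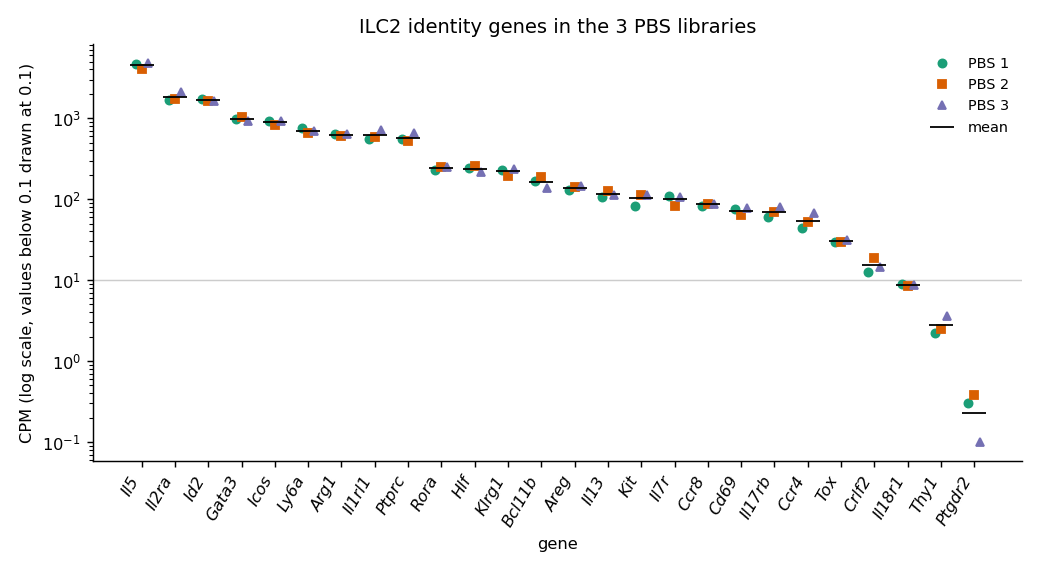
CPM (vertical axis, log scale) of the 26 ILC2 identity genes in PBS 1 (circles), PBS 2 (squares) and PBS 3 (triangles), with the mean as a bar and a grey line at 10 CPM. The genes run from Il5 at 4517 CPM to Ptgdr2 at 0.229 CPM, and 23 of them lie above the line.

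Il5, Il13 and Il4 neighbour each other on chromosome 11, with the DNA repair gene Rad50 between Il5 and Il13, and they stood at very different levels. The 250 bases upstream of their start sites are shown because these 3 cytokine genes carry the contrast described next. They are RefSeq sequence of GRCm38.p6 (mm10), written 5′ to 3′ on the strand of the gene, and capitals mark GATA, the core of the motif that GATA factors bind, or TATC, the same letters read on the other strand. The Il5 window is chr11:53720544-53720793 on the plus strand, the Il13 window chr11:53634703-53634952 on the minus strand and the Il4 window chr11:53618666-53618915 on the minus strand.
Il5: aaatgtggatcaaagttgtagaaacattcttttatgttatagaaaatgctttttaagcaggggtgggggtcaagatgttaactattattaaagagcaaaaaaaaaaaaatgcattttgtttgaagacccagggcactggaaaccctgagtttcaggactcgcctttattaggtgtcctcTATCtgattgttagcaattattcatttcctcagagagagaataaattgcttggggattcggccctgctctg
Il13: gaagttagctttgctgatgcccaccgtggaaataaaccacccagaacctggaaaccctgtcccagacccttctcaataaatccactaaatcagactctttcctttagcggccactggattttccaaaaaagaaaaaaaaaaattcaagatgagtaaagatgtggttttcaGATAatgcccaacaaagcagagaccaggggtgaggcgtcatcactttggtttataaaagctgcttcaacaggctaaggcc
Il4: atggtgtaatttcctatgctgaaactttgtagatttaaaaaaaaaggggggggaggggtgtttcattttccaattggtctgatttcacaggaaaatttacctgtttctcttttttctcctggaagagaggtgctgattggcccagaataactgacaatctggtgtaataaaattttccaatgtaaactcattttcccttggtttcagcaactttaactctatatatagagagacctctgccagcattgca

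The Il5 window held 1 TATC, the Il13 window 1 GATA and the Il4 window 0 matches. Such a short motif is common: 53.6% of 32851 upstream windows of this length in the RefSeq table held at least 1 match, as did 43.4% of 14393 windows of the ranked protein-coding genes and 11 of 20 windows of the cytokine list. The matches are letters in a window, not sites shown to be bound.

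Among cytokine genes, Il5 stood far above the rest. Of 23 genes listed for type 2 cytokines and growth factors 20 were analysed, and 13 of them (65.0%) stood at 10 CPM or more. Il5 made up 61.4% of the summed CPM. That sum also counts Furin, a protease gene on the list with 1751 ± 231 CPM, so it is not a sum of cytokine genes alone. Il13 had 106, 125 and 112 CPM (mean 114 ± 9.90). Il4 had 21.5, 20.1 and 20.4 CPM (mean 20.7 ± 0.729). Il9, whose product supports mast cells and ILC2s, had 23.4, 22.8 and 29.5 CPM (mean 25.2 ± 3.68). On the per-kilobase scale Il5 was 31.3 ± 5.22 times Il13 (25.3 to 34.8 in the 3 libraries), 62.9 ± 6.57 times Il9 and 6.20 ± 0.817 times Csf2. Il13 was 2.60 ± 0.307 times Il4 per kilobase of mean transcript length and 5.64 times Il4 per kilobase of merged exons, so the size of that ratio depends on the gene model.

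Neighbouring genes of the locus were read as well, in a short list put together after the values were seen. Rad50 had 138 ± 1.21 CPM, the kinesin gene Kif3a next to Il4 35.1 ± 1.05 CPM, the interferon regulatory factor gene Irf1 94.3 ± 7.16 CPM and the septin gene Sept8 94.4 ± 9.30 CPM. Csf2, which encodes the growth factor GM-CSF and lies on the same chromosome at chr11:54247271-54249667, had 409.7, 380.0 and 352 CPM.

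The other genes of this list followed in an order that held in part. Per kilobase, Il5 (2939 ± 273) was followed by Furin (624 ± 82.2), the gene of a protease that cleaves cytokine precursors, Csf2 (476 ± 35.8), Tgfb1 (155 ± 28.5), Areg (114 ± 6.78), Il13 (94.8 ± 8.21), Osm (71.2 ± 5.81), Il9 (47.1 ± 6.87) and Il4 (36.5 ± 1.29). The ranges of neighbours over the 3 libraries were separate along this series. With the longest transcript as the length, Csf2 stood above Furin and Tgfb1 below Areg and Il13. Il10 (24.3 ± 4.497), the calcitonin gene-related peptide gene Calca (24.2 ± 2.76) and Il24 (22.9 ± 7.27) came next, and their ranges overlapped, so their order is not resolved.

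Areg, encoding the EGF receptor ligand amphiregulin, had 129, 139 and 145 CPM. Tnf had 16.9, 13.2 and 13.6 CPM, Il6 3.47, 4.04 and 5.37 CPM and the opioid precursor gene Penk 1.29, 0.651 and 1.55 CPM. Il2, which the medium supplied as protein, had 0.488, 0.364 and 0.588 CPM. Chemokine ligand genes were sparse: of 18 listed, 17 were analysed and 1, Cxcl3 at 27.0, 24.4 and 26.1 CPM, reached 10 CPM. Ccl3, Ccl4 and Ccl5 had 9.31 ± 2.28, 6.86 ± 1.71 and 3.01 ± 0.811 CPM.

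**Figure D3:**
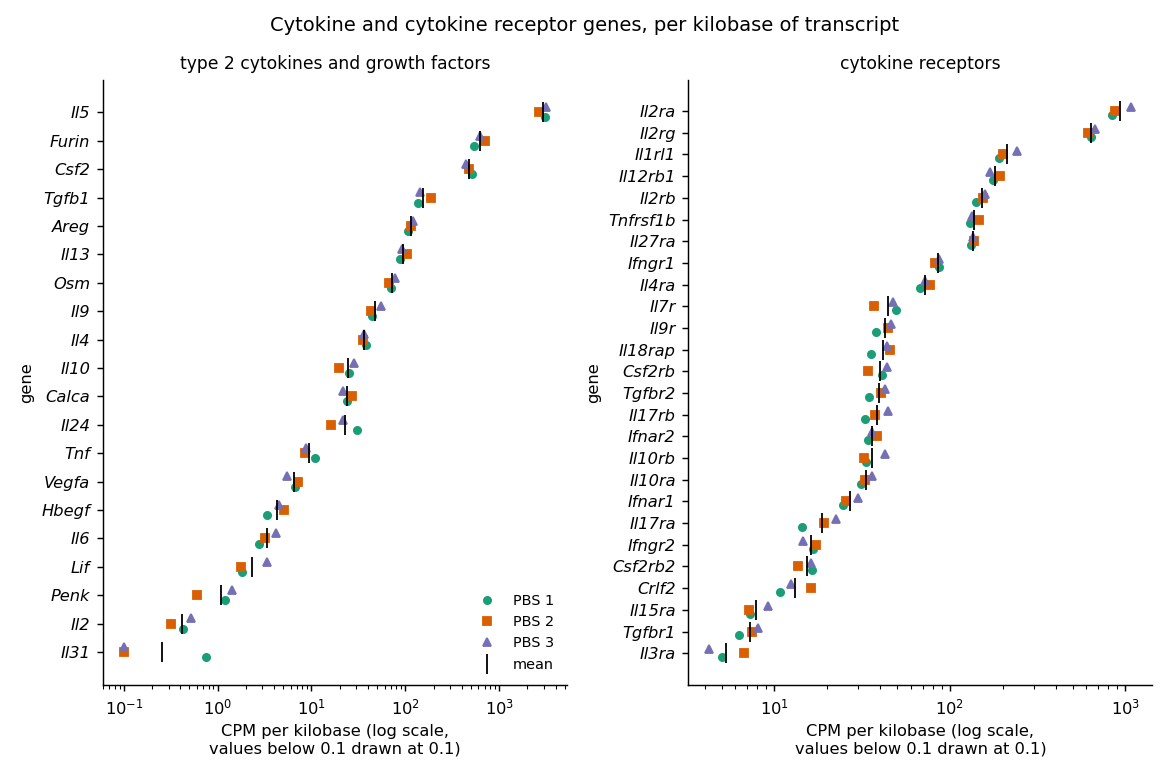
CPM per kilobase of mean transcript length (horizontal axes, log scale). The left panel holds 20 genes of the cytokine and growth factor list, Furin included, and the right panel the 26 highest cytokine receptor genes. PBS 1 is drawn as circles, PBS 2 as squares, PBS 3 as triangles and the mean as a bar. Il5 at 2939 and Il2ra at 933 lead the panels, and symbols of neighbouring genes such as Il10, Calca and Il24 overlap.

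Of 27 genes analysed for granule and secreted proteins, 22 (81.5%) stood at 10 CPM or more, beside 57.4% of all protein-coding genes. Lgals1 (2844 ± 75.5 CPM), the proteoglycan gene Srgn (934 ± 72.9 CPM), the protease inhibitor gene Ctla2a (841 ± 4.38 CPM) and the annexin gene Anxa2 (629.9 ± 2.91 CPM) led by reads. Il1r2, the gene of a decoy receptor that binds IL-1, had 331, 265 and 345 CPM. Gzmb, a granzyme gene, had 143, 145 and 171 CPM, whereas Prf1, the perforin gene, had 1.95, 1.64 and 2.36 CPM. Gzma had 61.7, 34.3 and 54.8 CPM, lowest in PBS 2. Ctla2a belongs to a family of close copies, and Serpina3g (312 ± 12.2 CPM) does so too, so their reads may have been divided among relatives.

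Receptors for the 2 culture cytokines were expressed unequally. Il2ra, the alpha chain that raises the affinity for IL-2, had 1661, 1733 and 2136 CPM and ranked 31, with PBS 3 the highest library. The shared gamma chain gene Il2rg had 663, 639.5 and 696 CPM and the beta chain gene Il2rb 431, 473 and 483 CPM. Per kilobase Il2ra was 6.13 ± 0.613 times Il2rb, 3.78 times with the longest transcript and 2.99 times with merged exons. Il2rg was 14.6 ± 1.87 times Il7r per kilobase. Downstream, Jak1 had 518 ± 38.2 CPM and Jak3 418 ± 22.3 CPM, and the STAT5 genes Stat5a and Stat5b had 56.5 ± 2.64 and 97.4 ± 7.06 CPM, with Stat3 overlapping Stat5a on the opposite strand.

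Feedback genes of this pathway, which STAT5 is known to induce in lymphocytes, were abundant. Cish had 478, 539.5 and 477 CPM, Socs1 522, 625 and 418 CPM, Socs3 173 ± 30.1 CPM and Socs2 95.2 ± 5.92 CPM, and the survival kinase gene Pim1 had 361, 396 and 385 CPM. Socs1 was lowest in PBS 3 and highest in PBS 2. Of 24 JAK-STAT genes 22 (91.7%) stood at 10 CPM or more, beside 57.4% of all protein-coding genes. At 100 CPM or more stood 11 of the 24, beside 15.2%.

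The 2 chains of the IL-33 receptor differed in level. Il1rl1 stood at 211 ± 26.9 CPM per kilobase and its signalling partner Il1rap at 4.17 ± 1.13, a ratio of 53.0 ± 14.2 that ran from 42.3 to 69.1 over the libraries and was 90.2 with merged exons as the length. The chains of the IL-18 receptor were unequal as well: Il18rap was 12.2 ± 1.87 times Il18r1 per kilobase, and 8.13 times with merged exons. For the IL-25 receptor, Il17ra stood at 18.7 ± 3.99 CPM per kilobase and Il17rb, within the limit set by its overlap, at 38.2 ± 5.75. Of the TNF receptors, Tnfrsf1b (274, 307 and 280.1 CPM) was 31.4 ± 7.66 times Tnfrsf1a (2.98, 3.60 and 4.98 CPM) per kilobase, and 52.8 times with merged exons.

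All 38 listed cytokine receptor genes were analysed and 26 (68.4%) stood at 10 CPM or more, beside 57.4% of all protein-coding genes. Receptor genes for cytokines that restrain or redirect ILC2s were present: Il27ra had 268, 278 and 278 CPM, Il12rb1 260.2, 287 and 249.5 CPM, Tgfbr2 200.3, 234 and 248 CPM and Il10ra 101, 106 and 117 CPM. The receptor genes Il4ra (166 ± 9.95 CPM) and Il9r (95.8 ± 9.55 CPM) pair with cytokines listed above. Il12rb2, the partner of Il12rb1 in the IL-12 receptor, had 0.807, 1.09 and 2.77 CPM, and Serbp1 overlaps it on the opposite strand. Close to the limit that a count of 0 allows were Il23r (0, 0.377 and 0.259 CPM), Il5ra (0.0358, 0.403 and 0.326 CPM), Il13ra1 (0.662, 0.343 and 0 CPM) and Il1r1 (0, 0.0685 and 0.615 CPM).

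Of 32 costimulatory and checkpoint receptor genes, 18 (56.2%) stood at 10 CPM or more, a share near the 57.4% of all protein-coding genes. Icos led by reads. Per kilobase it was 110.4 ± 12.7 times Cd28 (9.92, 8.81 and 8.35 CPM), the related receptor of T cells, and 176 times with merged exons. Tnfrsf18, encoding GITR, had 325, 322 and 280.0 CPM, Tnfrsf8, encoding CD30, 215, 248 and 253 CPM and Tnfrsf9, encoding 4-1BB, 163, 156 and 175 CPM. Pdcd1, the PD-1 gene, had 242, 246 and 215 CPM. The death receptor 3 gene Tnfrsf25, whose ligand TL1A acts on ILC2s, had 99.0, 119.5 and 90.9 CPM. Other checkpoint genes had few reads: Ctla4 had 5.99, 8.09 and 8.96 CPM, Tigit 6.13, 8.32 and 10.4 CPM and Lag3 0.0992, 0.236 and 0.162 CPM.

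Receptors for lipid mediators and neuropeptides were led by Ltb4r1 both in reads and per kilobase. Ltb4r1, the receptor gene for leukotriene B4, had 541, 578 and 497 CPM, and Cysltr1, for cysteinyl leukotrienes, had 393, 369 and 454 CPM. Ltb4r1 was 2.99 ± 0.528 times Cysltr1 per kilobase, and 4.96 times with either the longest transcript or merged exons. Nmur1, the neuromedin U receptor gene, had 221, 241 and 197 CPM. The calcitonin gene-related peptide receptor needs 2 proteins, and its genes Ramp1 (426, 397 and 388 CPM) and Calcrl (91.4, 109 and 115 CPM) were both present. Ramp1 stood at 9.36 ± 1.64 times Calcrl per kilobase, and 6.29 times with merged exons. The prostacyclin receptor gene Ptgir had 177, 156 and 161 CPM and the glucocorticoid receptor gene Nr3c1 206, 214 and 232 CPM.

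Of 33 receptor genes analysed in this group, 16 (48.5%) stood at 10 CPM or more, beside 57.4% of all protein-coding genes. The vasoactive intestinal peptide receptor gene Vipr2 had 8.37, 21.8 and 15.8 CPM, more than 2-fold apart between PBS 1 and PBS 2, and its relative Vipr1 had 0.0799 ± 0.138 CPM. Among the enzymes that make such mediators, Tph1, which starts serotonin synthesis, had 274, 325 and 318 CPM. Lta4h (132 ± 14.5 CPM) and Alox5 (60.2 ± 7.79 CPM) act in leukotriene synthesis, while Ltc4s, the leukotriene C4 synthase gene, had 0, 0.377 and 0.0324 CPM. Of 15 such enzyme genes analysed, 6 (40.0%) stood at 10 CPM or more.

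Trafficking genes were led by Cxcr6, the receptor gene for the membrane chemokine CXCL16, with 1675, 1543 and 1731 CPM and rank 39. Selplg (837 ± 70.9 CPM), which encodes a selectin ligand, and the integrin genes Itgb7 (627 ± 37.3 CPM), Itgb2 (411 ± 20.7 CPM), Itgb3 (392 ± 40.0 CPM) and Itgal (369.6 ± 19.6 CPM) were also among the higher members by reads. Per kilobase the ranges of Cxcr6 (867 ± 50.7) and Selplg (834 ± 70.6) overlapped. Among chemokine receptor genes, Ccr2 had 390.1, 372 and 445 CPM, Ccr8 83.1, 87.1 and 87.6 CPM and Ccr4 43.6, 52.0 and 67.5 CPM. Cxcr3 (1.44 ± 0.114 CPM) and Cxcr5 (0.177 ± 0.114 CPM), receptors of type 1 and follicular lymphocytes, had few reads. Of 34 trafficking genes, 24 (70.6%) stood at 10 CPM or more, beside 57.4% of all protein-coding genes.

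Transcription factors were led by Id2 and Gata3. Of 90 lymphoid factor genes listed 88 were analysed, 67 (76.1%) stood at 10 CPM or more and 26 at 100 CPM or more, beside 57.4% and 15.2% of protein-coding genes. Id2, which blocks E proteins and is required by all innate lymphoid cells, had 1751, 1616 and 1653 CPM. Per kilobase Id2 (1196 ± 49.8) and Gata3 (1068 ± 68.3) were followed by Xbp1 (463 ± 11.7), a factor of the unfolded protein response, and then by Hif1a (272 ± 48.6) and Atf4 (222 ± 11.7), whose ranges overlapped. With the longest transcript as the length, Id2 stood at 850 and Gata3 at 304 CPM per kilobase, so their distance depends on the gene model. Gata3 was 12.3 ± 0.995 times Rora, and Id2 was 33.8 ± 3.36 times Id3, both per kilobase of mean transcript length. With merged exons these ratios were 13.2 and 45.4.

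Further factors with known roles in ILC2s were present at moderate read levels. Pparg, a lipid-sensing nuclear receptor gene, had 228, 194 and 239 CPM, Hlf 241, 257 and 219 CPM, Tox2 235, 247 and 236 CPM and Ets1 372, 424 and 444 CPM. Bhlhe41 had 279, 132 and 166 CPM, and PBS 1 was more than 2-fold above PBS 2. Among signal-driven factors, Nfkb1 had 370.3 ± 18.8 CPM, Stat3 325 ± 9.57 CPM, Junb 229 ± 40.3 CPM and Irf4 109 ± 22.6 CPM. Prdx2, with a mean of 159 CPM, overlaps Junb on the opposite strand, which limits the Junb value. Tbx21 and Eomes, factor genes of type 1 cells, had few reads, at 1.65, 1.82 and 0.809 CPM and 0.930, 0.103 and 0.198 CPM. Gata2, a factor gene of mast cells and basophils, had 14.6, 21.2 and 13.7 CPM. Tcf7, which acts in T cells and in the development of ILC2s, had 2.88, 2.30 and 0.841 CPM. Zbtb16, which marks ILC precursors, had 0, 0.274 and 0.525 CPM, and Fosb was listed at 0 in all 3 libraries. Foxp3, the regulatory T cell factor gene, had 33.0, 42.0 and 34.7 CPM, but Ccdc22 (57.3 ± 7.71 CPM) and Ppp1r3f (17.7 ± 2.17 CPM) overlap it on the opposite strand.

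Cell cycle genes were high. Of 42 proliferation genes 40 (95.2%) stood at 10 CPM or more, beside 57.4% of all protein-coding genes. At 100 CPM or more stood 34 of the 42, beside 15.2%. The median of the list was 351 CPM beside 17.0 CPM for all protein-coding genes. Its highest member, the tubulin gene Tuba1b (3173 ± 215 CPM), held 17.6% of the summed CPM. Rrm2, a subunit of the enzyme that makes deoxynucleotides, had 1357, 1276 and 1443 CPM. The DNA topoisomerase gene Top2a had 618, 594 and 659.8 CPM, and the proliferation marker gene Mki67 had 502, 404 and 516 CPM, lowest in PBS 2. The helicase subunit gene Mcm5 had 547 ± 9.34 CPM and the sliding clamp gene Pcna 462 ± 28.3 CPM. Of the D-type cyclins, Ccnd2 (415, 355 and 338 CPM) and Ccnd3 (378, 393 and 349 CPM) were expressed, while Ccnd1 had 0, 0.137 and 0.518 CPM and was listed at 0 in PBS 1. The inhibitor gene Cdkn1a had 251, 257 and 205 CPM and Cdkn2a 0.463, 0.514 and 0.388 CPM. Bysl overlaps Ccnd3 on the opposite strand at 77.2 ± 9.41 CPM.

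Of 23 survival and death genes analysed, 18 (78.3%) stood at 10 CPM or more. Casp8, the initiator caspase gene of death receptors, had 439, 395 and 432 CPM, and the apoptosis inhibitor gene Birc5, which also acts in mitosis, had 364, 360.2 and 356 CPM. Mcl1 (249 ± 16.8 CPM) and Bcl2 (72.0 ± 11.7 CPM) encode protective members of the BCL2 family, and Bax (247 ± 19.4 CPM) a pore-forming member. Bcl2l11, which encodes the death activator BIM, had 3.87, 3.94 and 4.08 CPM.

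Glycolysis genes held 1.53% of all counts, and 20 of 22 (90.9%) stood at 10 CPM or more. Ldha, which makes lactate, had 3458, 3368 and 3397 CPM, and per kilobase it was 120.7 ± 1.41 times Ldhb, but 64.9 times with merged exons as the length. Pkm had 2633, 2820.2 and 2605 CPM, Aldoa 2108, 2147 and 1965 CPM and Eno1 1889, 1912 and 1749.6 CPM. The 3 libraries lay close together for each of these genes. The related gene Eno1b had 1148 ± 61.0 CPM, and whether it drew reads of Eno1 was not tested. Gapdh had 670.2, 671 and 624 CPM, and 4 near-identical pseudogenes would bring its mean to 962 CPM if all their reads were its own. Slc2a1, the main glucose transporter gene of activated lymphocytes, had 149.9 ± 20.3 CPM, and the lactate exporter gene Slc16a3 had 139 ± 13.6 CPM.

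Arginase was expressed from Arg1 rather than from Arg2. Per kilobase Arg1 was 793 ± 172 times Arg2 (1.72, 1.19 and 1.10 CPM), 469 times with the longest transcript and 311 times with merged exons; Vti1b overlaps Arg2 on the opposite strand. Nos2, whose product competes for arginine, was listed at 0 in all 3 libraries. Downstream in polyamine synthesis, Odc1 had 227, 255 and 265 CPM, its regulator gene Oaz1 1046 ± 78.4 CPM and the spermidine synthase gene Srm 141 ± 11.8 CPM. Of 17 arginine and polyamine genes analysed, 14 (82.4%) stood at 10 CPM or more.

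Of 28 lipid genes analysed, 22 (78.6%) stood at 10 CPM or more, beside 57.4% of all protein-coding genes. Plin2, which coats lipid droplets, had 546, 535 and 526 CPM. Fasn (248 ± 52.2 CPM), the fatty acid synthase gene, and Fabp5 (209 ± 3.74 CPM), a fatty acid binding protein gene, were present, while the scavenger receptor gene Cd36 had 4.63, 7.64 and 1.94 CPM. In a list of amino acid transport and serine synthesis genes, drawn up after the values were seen, 18 of 20 (90.0%) stood at 10 CPM or more. Slc7a8 (999 ± 39.6 CPM) and Slc7a5 (584 ± 66.9 CPM) encode light chains of neutral amino acid transporters, and Slc3a2 (760.2 ± 41.8 CPM) the heavy chain they share. The serine synthesis genes Psat1 and Phgdh had 501 ± 27.5 and 372 ± 9.64 CPM.

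Large housekeeping families were measured by their share of all counts. The 84 genes of cytosolic ribosomal proteins held 3.17%, the nuclear-encoded respiratory chain 2.01%, chaperones 1.94%, translation factors 1.66% and the proteasome 1.15%. The 13 genes of the mitochondrial genome held 0.473%, 0.400% and 0.625% and were highest in PBS 3. This share leaves out near-identical nuclear copies that also drew reads. Gm28437 had 1048 CPM beside 1048 CPM for mt-Co3, and Gm10925 had 512 CPM beside 470 CPM for mt-Atp6. The share would be higher if reads of such copies belonged to the mitochondrial genes, which was not tested. Of 25 interferon-stimulated genes, 11 (44.0%) stood at 10 CPM or more: Isg15 had 4.32 ± 0.590 CPM and Rsad2 0.0910 ± 0.130 CPM. Among 16 pattern recognition genes analysed, 7 (43.8%) stood at 10 CPM or more, led by the STING gene Tmem173 (168 ± 6.52 CPM) and the adaptor gene Myd88 (102 ± 8.83 CPM), which also serves ST2.

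Cyp11a1, the mitochondrial enzyme gene that starts steroid synthesis from cholesterol, ranked 18. It had 2339.8, 2211 and 2343 CPM (mean 2298 ± 75.5), with the 3 libraries close together, and stood at 1323 ± 43.5 CPM per kilobase. A list of steroid synthesis genes was drawn up after this rank was seen, and 13 of 19 were analysed. Cyp11a1 made up 74.4% of their summed CPM. Its electron donors Fdx1 (42.3, 46.6 and 39.9 CPM) and Fdxr (24.2, 25.6 and 23.2 CPM) were present, and so was the mitochondrial cholesterol-binding protein gene Tspo (351, 347 and 307 CPM). Star, which brings cholesterol into mitochondria in steroid-making glands, had 0.463, 1.54 and 2.04 CPM. Hsd3b2, an isoform gene of the enzyme that follows Cyp11a1, had 0.489, 1.06 and 1.22 CPM.

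Markers of other cells that a lung sort could hold were read next. In bulk libraries, fewer cells of a type and less RNA per cell cannot be told apart. Of 13 ILC1 and NK markers analysed, 1 reached 10 CPM, Gzma, and their sums were 83.8, 57.8 and 80.8 CPM. The defining members Ncr1 (1.19, 1.78 and 0.841 CPM), Klrb1c (0, 0 and 0.670 CPM) and Eomes had at most 1.78 CPM, and Klrb1c was listed at 0 in PBS 1 and PBS 2. Of 10 ILC3 markers, 2 reached 10 CPM, Kit and Nrp1 (25.1, 26.04 and 29.6 CPM), while Il22 had 10.3, 7.64 and 7.96 CPM. Kit is also on the ILC2 and the mast cell lists.

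T cell markers were mixed. All 18 were analysed and 11 (61.1%) stood at 10 CPM or more, near the 57.4% of all protein-coding genes, with sums of 721, 751 and 727 CPM. The T cell receptor beta constant genes Trbc2 (242, 246 and 238 CPM) and Trbc1 (111, 96.4 and 106 CPM) and the kinase gene Zap70 (117, 118 and 113 CPM) led. The alpha constant gene Trac had 11.3, 12.1 and 12.6 CPM. Per kilobase Trbc2 was 19.6 ± 1.21 times Trac, and 27.2 times with merged exons. The CD3 genes Cd3g (45.0, 43.2 and 40.7 CPM), Cd3e (18.3 ± 2.64 CPM) and Cd3d (8.66, 6.68 and 7.72 CPM) had fewer reads, and Cd4 (6.81, 11.8 and 7.31 CPM), Cd5 (4.47, 6.68 and 4.11 CPM) and Cd8a (0.436, 0.516 and 1.04 CPM) fewer still. The part of T cells in these reads was not tested.

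Mast cell and basophil markers were the highest of these lists by sum, at 1479, 1520 and 1413 CPM. Of 17 analysed, 10 (58.8%) stood at 10 CPM or more, near the 57.4% of all protein-coding genes. The tryptase genes Tpsab1 (692, 769 and 647 CPM) and Tpsb2 (203, 219 and 203 CPM), the chymase gene Cma1 (243, 199.9 and 209.8 CPM) and the carboxypeptidase gene Cpa3 (138, 111 and 116 CPM) were present in every library. The IgE receptor genes Fcer1a (23.7, 16.9 and 22.4 CPM) and Ms4a2 (2.81, 3.19 and 4.37 CPM), the basophil protease gene Mcpt8 (24.4, 18.7 and 24.6 CPM) and the mast cell receptor gene Mrgprb2 (0.794, 0 and 0 CPM) had fewer reads. Each of the 4 protease genes lay within 2-fold between libraries, and the part of mast cells in these reads was not tested.

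Of 13 B and plasma cell markers analysed, 4 (30.8%) stood at 10 CPM or more, led by Ighm (116, 111 and 86.3 CPM) and Igkc (28.6, 45.8 and 42.3 CPM). The genes of the paired signalling chains of the B cell receptor differed, with Cd79b at 16.7, 16.8 and 16.4 CPM and Cd79a at 0.397, 1.06 and 0.971 CPM. Among 21 myeloid markers analysed, 5 (23.8%) stood at 10 CPM or more, and the sums were 113, 174 and 117 CPM. The chitinase-like gene Chil3 (21.9, 57.3 and 18.1 CPM) and the lysozyme gene Lyz2 (12.2, 24.2 and 12.5 CPM), both of macrophages, were highest in PBS 2, while Adgre1 had 0.496, 1.82 and 2.04 CPM. Xcr1, a dendritic cell receptor gene, had 40.1, 35.1 and 37.1 CPM.

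Eosinophil markers reached 10 CPM in 0 of 9 cases, with Ccr3 at 3.67, 3.56 and 6.92 CPM and Epx listed at 0. Of 17 structural lung markers analysed, 2 reached 10 CPM: the endothelial and platelet gene Pecam1 (115, 79.8 and 88.5 CPM) and the epithelial gene Epcam (27.4 ± 1.79 CPM). The surfactant gene Sftpc had 7.44, 4.69 and 0.809 CPM while the secretoglobin gene Scgb1a1 had 0.0331, 6.13 and 8.25 CPM, and Scgb3a2 was listed at 0. Of 7 erythroid and platelet genes analysed, 0 reached 10 CPM. Xist, transcribed from the inactive X chromosome of females, had 89.3, 78.3 and 111 CPM, and the Y-linked genes Kdm5d and Uty had 0.473, 0.826 and 1.31 CPM and 0.506, 0.878 and 0.796 CPM.

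**Figure D4:**
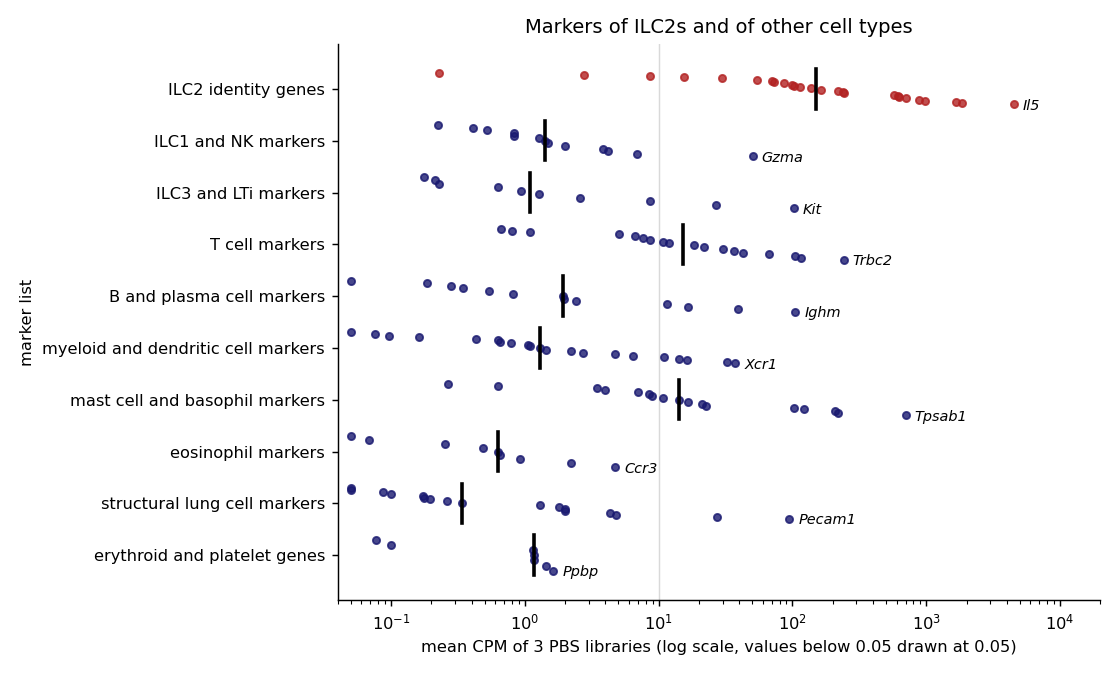
Mean CPM of the 3 PBS libraries (horizontal axis, log scale) for each analysed gene (points) of the ILC2 identity list (red) and of 9 lists of other cell types (dark blue), with the median of each list as a black bar and the highest gene named. The ILC2 list has a median of 151 CPM, and the T cell list and the mast cell and basophil list have the highest medians of the others, at 15.2 and 14.3 CPM.

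The 3 libraries were alike but differed by more than counting error. Over the 8442 protein-coding genes at 10 CPM or more, Pearson correlations of log2 CPM were 0.987 (PBS 1 with 2), 0.983 (PBS 1 with 3) and 0.984 (PBS 2 with 3), as descriptions across genes. The chi-square per degree of freedom of the pairs was 25.2, 36.8 and 33.2, where counting error alone gives about 1, so no library repeated the counts of another; whether any share RNA or a culture is not given. More than 2-fold differences were seen for 37, 38 and 23 genes. The median coefficient of variation was 10.98% for genes at 10 to 100 CPM and 6.50% at 100 to 1000 CPM, beside counting errors of 3.07% and 1.37%. At 10 CPM or more, 4519 genes (53.5%) varied by 10% or less and 197 (2.33%) by 30% or more.

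Of the 422 genes in the top 5% by coefficient of variation at 10 CPM or more, PBS 1 was lowest in 240 and PBS 3 highest in 227. Over all 8442 genes at that level, PBS 1 was lowest in 38.2% and PBS 3 highest in 38.7%. Of the 15 that varied most, 5 were highest in PBS 1, 2 in PBS 2 and 8 in PBS 3, and 7 had PBS 1 lowest and PBS 3 highest. Lilrb4a, an inhibitory receptor gene, had 24.8, 29.3 and 57.9 CPM and was highest in PBS 3. Chil3 was highest in PBS 2. Among the genes highest in PBS 1 were Gm12166, Rorb, Olfr620 and Rpl10-ps3, and these followed the order PBS 1, PBS 3, PBS 2. The share of counts in genes typed as ribosomal RNA ran in the same order, at 1.19%, 0.826% and 0.517%, and its part in those genes was not tested.

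**Figure D5:**
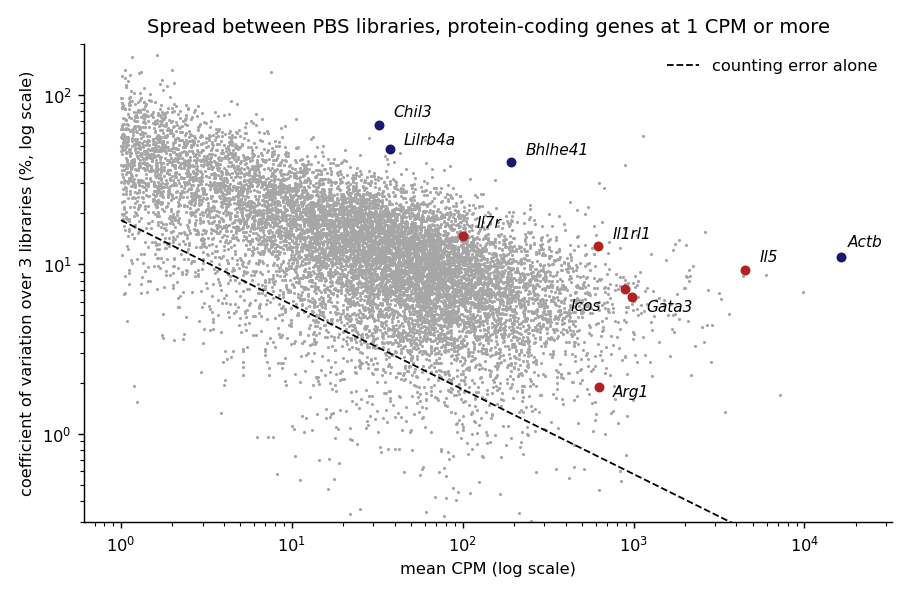
Coefficient of variation over the 3 PBS libraries (vertical axis, log scale) against mean CPM (horizontal axis, log scale) for the 11200 protein-coding genes at 1 CPM or more (grey points), with ILC2 markers in red, other named genes in dark blue and the counting error as a dashed line. The median is 6.50% at 100 to 1000 CPM, where Arg1 lies at 1.89%, and Chil3, Bhlhe41 and Lilrb4a stand above most genes of like abundance.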

How the data were processed

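RNA-seq libraries of sorted lung ILC2s cultured with PBS were described. The values are expected counts, also called estimated counts, per gene that the authors deposited, made by Partek's expectation-maximization quantification per the file headers, which shares reads among matching genes: 41.7% of values were whole within 0.01. Per the submitters' processing notes, CASAVA 1.8.2, STAR, Partek and the build mm10 were used. Which annotation release, gene filter and strand setting were used is not stated in labels or headers. The lowest total over the 6 libraries was 10. Because BALB/c reads were read against a C57BL/6 genome, polymorphic families such as MHC genes are uncertain, as are overlapping genes and near-identical copies.

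Counts were not rounded. Each library was divided by its total over all 21825 genes to give CPM, and genes typed protein coding in the deposited table were ranked by the mean. Transcript lengths came from GENCODE M21, where 21681 gene names were found and 21192 had the same coordinates; 13 protein-coding genes had no length. Lists whose genes had no value are given as analysed of listed. Library totals were 30233979, 29185442 and 30908757 counts, where 10 CPM corresponds to 302, 292 and 309 counts, so the spread between libraries limits precision. Pseudogenes were matched to protein-coding transcripts with BLAST 2.17.0 (identity of 95% or more over 50% or more of their length). Calculations used Python 3.11.15 and pandas 2.3.3, and edgeR 4.0.16 and DESeq2 1.42.0 supplied alternative scalings only. The scripts were tested on simulated data.

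The cells, 29 gene lists and 11 families were chosen with earlier results of these data known, and 4 further lists (steroid synthesis, actin cytoskeleton, amino acids, type 2 cytokine locus) after the values were seen. The genes named were the 40 highest by CPM, the 20 highest per kilobase, members of the ILC2, cytokine and receptor lists at 10 CPM or more, the leading members of other lists, defining members near 0, the 15 most variable genes and the 5 highest noncoding genes; some are given by count. Genes named outside this rule were chosen after their values were seen. Alternatives changed the scaling, the denominator, the length, the filter and the libraries included. A few genes are not reported here.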

Additional observations from a re-analysis of the deposited data

How the results depend on the processing

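Counts of genes at 1, 10 and 100 CPM or more stayed within 1.5 times their values under edgeR's TMM factors and DESeq2's size factors. They also did so with other denominators, the lowest library in place of the mean, and a filter of 10 counts in at least 1 library. The count of ILC2 identity genes at 10 CPM or more did so too, but was not run with the filter. The share of the 50 highest genes stayed within 1 SD with the filter and without mitochondrial genes and genes that collect ribosomal RNA reads. Scaling was not run for that share. The 50 highest genes were compared with the full ranking under both scalings and stayed within 1.5 times. Their overlap with the per-kilobase list was run only with other lengths and with libraries left out. The ribosomal protein share moved from 3.17% to 3.62% when 53 near-identical pseudogenes were added, an alternative chosen after seeing the data. Leaving out 1 library at a time gave 11169 to 11232 genes at 1 CPM or more, 8410 to 8469 at 10 CPM, 2218 to 2261 at 100 CPM, a share of 14.4% to 14.9% in the 50 highest genes, 809.5 to 838.5 genes for 50% of the counts, an overlap of 35 to 36 between the lists by CPM and per kilobase, 49 to 50 genes shared with the full ranking, 23 ILC2 identity genes each time, and a median coefficient of variation of 6.93% to 8.23% beside 9.38% with all 3. Over 178 named genes, TMM and DESeq2 scaling moved 0 by more than 1 SD, with ratios of 0.994 to 1.006. Both scalings keep the overall size of the 3 libraries together. Means over these libraries, and counts and ranks built on them, could therefore hardly move, so this is a weak check. The protein-coding denominator moved 38 genes, by ratios of 1.05. The denominator without mitochondrial genes and genes that collect ribosomal RNA reads moved 8, by ratios of 1.02. Without PBS 2, Chil3 fell to 0.616 of its mean, the largest move among those genes, to 19.96 CPM. Ratios per kilobase depend on the gene model: Jak1 to Jak2 was 15.7 with mean, 5.11 with longest and 3.47 with merged-exon length. The cause was not tested. No paired analysis was possible because only 1 group was used. Depth limits statements on genes under about 0.1 CPM.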

Other observations

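Several abundant genes lie outside the lists above and were chosen after their values were seen. Fgl2, which encodes a secreted fibrinogen-like protein, had 1391, 1519 and 1716 CPM, highest in PBS 3. Ucp2, a mitochondrial carrier gene, had 1511, 1601 and 1415 CPM, and Emb, which encodes the adhesion protein embigin, had 1119, 1045 and 1173 CPM. Col18a1, a basement membrane collagen gene, had 431, 498 and 452 CPM. Stab2, the gene of a scavenger receptor known from sinusoidal endothelium, had 425, 402 and 482 CPM. Of other endothelial genes, Pecam1 had 115, 79.8 and 88.5 CPM, Vwf 0.0247, 0.442 and 0.551 CPM and Prox1 0.529, 0 and 0 CPM. The metalloprotease gene Adam8 had 445, 488 and 481 CPM, the ubiquitin ligase subunit gene Asb2 455, 508 and 430.1 CPM and the phosphatase gene Dusp6 430.3, 448 and 439.8 CPM.

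Among genes that do not code for protein, the ribosomal RNA gene CT010467.1 had 11902, 5139 and 8246 CPM and Gm26917, annotated over ribosomal DNA, 3069, 3828 and 1916 CPM; the first was highest in PBS 1 and the second in PBS 2. The mitochondrial ribosomal RNA gene mt-Rnr2 had 2609, 1684 and 2712 CPM and Gm26825 1263, 1184 and 1079 CPM. Gm26825 (chr5:5781530-5783636, plus strand) spans Gm15459, a near-identical copy of Hspa8, on the opposite strand. Reads of Gm26825, Gm15459 and Hspa8 may therefore be mixed, which was not tested. The nuclear long noncoding RNA gene Malat1 had 682, 568 and 867 CPM.

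The deposited counting gave reads to pseudogenes that nearly match an expressed gene. Of 439 pseudogenes at 1 CPM or more, 303 (69.0%) were near-identical to a protein-coding transcript. For Rpl5, a protein of the large ribosomal subunit, the gene had 13.5 ± 0.771 CPM while its copy Gm15500 had 505 ± 35.9 CPM, and the sum was 38.4 times the gene alone. For Hspa8 the copy Gm15459 had 965 ± 111 CPM beside 906 ± 47.3 CPM for the gene. The closest protein-coding match of Gm4735 (1105 ± 40.5 CPM) was Eno1b (1148 ± 61.0 CPM). The related gene Eno1 had 1850 ± 87.7 CPM, and whether it lost reads to either was not tested. Hmgb2, counted above among proliferation genes at 792 ± 69.0 CPM, would stand at 1515 CPM with its 2 copies. How these reads divide between a gene and its copies was not tested.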
